A study of Drosophila melanogaster with 2 samples.

Results

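The dpr, DIP and beat genes of Drosophila melanogaster, with side, were examined for binding of GFP-tagged tramtrack in whole embryos. The genes were taken from the Ensembl annotation by symbol: every protein-coding gene named dpr with a number, DIP- or beat-, and side itself. This gave 47 of 13968 protein-coding genes on the chromosome arms, with 21 dpr genes, 11 DIP genes, 14 beat genes and side. The data are chromatin immunoprecipitation sequencing (ChIP-seq) peak lists from 1 group of 2 biological replicates, of whole animals aged 0 to 24 h from a ttk-GFP strain made by an insertion targeting ttk. Per the labels, precipitation used an antibody to GFP, although their antibody field reads ttk. No second genotype, other age or control library was analysed here. In whole embryos, binding in few cells and weak binding in many cells cannot be told apart, and the cells in which these genes are active were not measured.

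Dpr proteins and their partners, the DIPs (Dpr-interacting proteins), are immunoglobulin-domain proteins on the surface of neurons that bind each other in selective pairs. They are known for matching synaptic partners in the fly visual system and at neuromuscular junctions. Beat proteins, named after beaten path, bind Side proteins, which are named after sidestep and are best known for steering motor axons to muscle. Tramtrack is a BTB-domain zinc-finger repressor known for blocking neuronal fates in glia and other non-neuronal cells.

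A gene was counted as promoter-bound when a peak summit of the authors' conservative list lay within 500 bp of any of its transcription start sites (TSSs), and as locus-bound when one lay inside it or at most 2 kb from either end. Long genes collect more summits, so each share is set beside that of genes of like length: the other genes in the members' bins of locus length, out of 20 equal bins, weighted by the members in each. Signal is the authors' value for a peak, with no unit given in the sources used here. Read depth is unknown, since the files hold peaks and no counts. The conservative list held 3815 peaks on the arms, with a median signal of 122, and the replicates' own thresholded lists held 3201 (replicate 1) and 2976 (replicate 2). Shares over genes are descriptions of this pair of libraries, and no test was made over the members.

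The sequences around 5 member summits are printed here, with no binding site located within them. They are the strongest summit of each of the 4 members with the highest signals and the only one at side, 201 bases each from the NCBI RefSeq dm6 sequence, on the plus strand, 5′ to 3′, with the summit at the middle base. Capitals mark matches to the motifs described further on. They stand for an intron of beat-Ib (chr2L:15911183-15911383), the promoter of dpr14 (chrX:7908631-7908831), an intron of DIP-alpha (chrX:3546221-3546421), sequence upstream of dpr20 (chr3L:857730-857930) and an intron of side (chr3R:27407171-27407371).
beat-Ib: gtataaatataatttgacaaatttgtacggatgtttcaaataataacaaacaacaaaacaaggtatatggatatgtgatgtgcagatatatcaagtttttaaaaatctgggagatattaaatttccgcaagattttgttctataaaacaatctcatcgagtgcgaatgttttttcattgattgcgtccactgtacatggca
dpr14: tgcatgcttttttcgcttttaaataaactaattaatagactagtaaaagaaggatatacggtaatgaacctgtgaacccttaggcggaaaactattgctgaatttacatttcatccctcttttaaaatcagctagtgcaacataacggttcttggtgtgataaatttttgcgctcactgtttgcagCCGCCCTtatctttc
DIP-alpha: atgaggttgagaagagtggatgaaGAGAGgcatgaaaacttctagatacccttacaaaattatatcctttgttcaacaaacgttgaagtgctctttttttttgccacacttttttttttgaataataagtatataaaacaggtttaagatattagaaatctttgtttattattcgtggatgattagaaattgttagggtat
dpr20: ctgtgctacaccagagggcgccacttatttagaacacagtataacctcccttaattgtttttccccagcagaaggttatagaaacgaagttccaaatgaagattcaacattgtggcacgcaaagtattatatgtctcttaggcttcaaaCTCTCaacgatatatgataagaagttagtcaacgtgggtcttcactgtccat
side: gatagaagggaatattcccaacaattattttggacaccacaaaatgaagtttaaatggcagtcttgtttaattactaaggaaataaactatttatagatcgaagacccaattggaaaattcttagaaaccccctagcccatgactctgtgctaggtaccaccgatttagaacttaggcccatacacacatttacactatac

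Tramtrack-GFP summits were sparse at these genes. Of the 47 members, 1 was promoter-bound (2.13%), dpr14, against 20.01% of genes of like length and 14.2% of all protein-coding genes. Over the locus, 11 members had a summit (23.4%), against 53.8% of genes of like length and 28.2% of all genes. The difference between members and genes of like length was -17.9 percentage points at promoters and -30.4 points over the locus. The members had a median of 1 TSS. Matched on TSS number instead of length, 13.4% of other genes were promoter-bound. With the 5′ end of each gene as its only start, 12.3% of genes of like length were. Among the 1908 strongest peaks of the list the promoter share was 2.13% for members and 12.2% for genes of like length.

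By family, locus-bound were 4 of 21 dpr genes (19.05%, against 50.4% of genes of like length), 2 of 11 DIP genes (18.2%, against 55.6%) and 4 of 14 beat genes (28.6%, against 57.0%). No DIP or beat gene was promoter-bound, nor was side, which had a summit in an intron. Of the 5 members on X, 3 were locus-bound (60.0%, against 50.8% of genes of like length), and of the 42 on the autosomes 8 were (19.05%, against 54.2%). The difference between X and the autosomes was not tested.

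**Figure D1:**
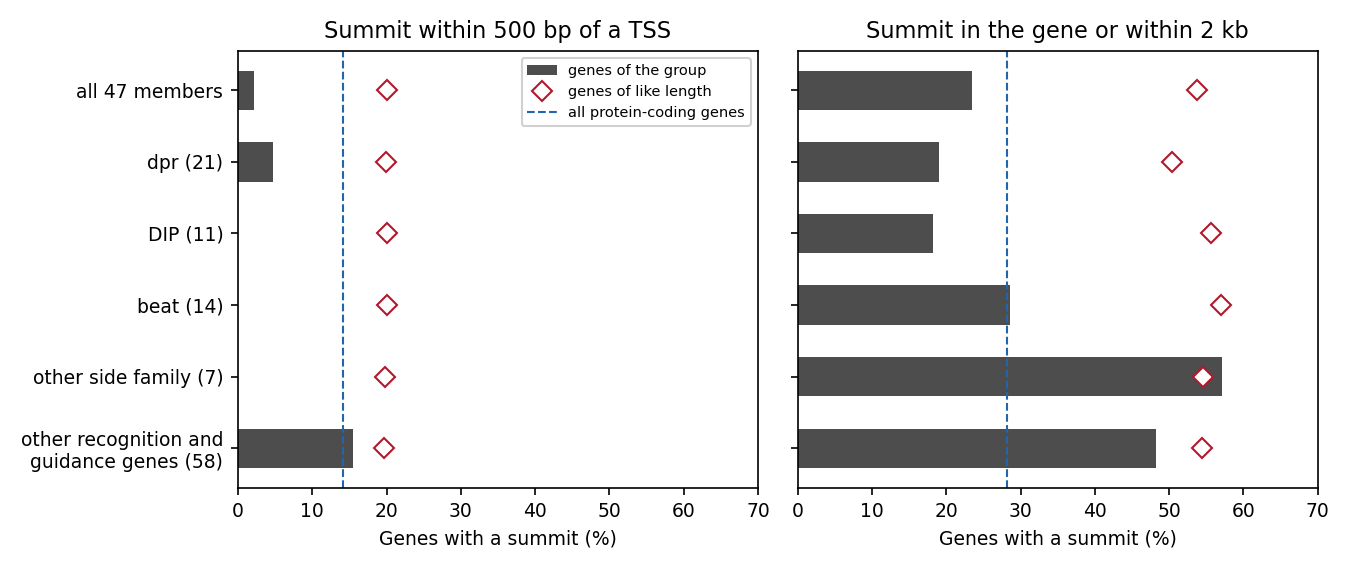
Percent of genes with a summit of the conservative list within 500 bp of a TSS (left) and inside the gene or at most 2 kb away (right), for the members, their families and related lists. Bars are the genes named (number in brackets), diamonds genes of like length and the dashed line all protein-coding genes; the 47 members stand at 2.13% and 23.4%, below both.

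These are long genes. Their median length was 33.6 kb, against 2.16 kb over all protein-coding genes, and 38 of the 47 stood at or above the 90th percentile. DIP-lambda was the longest at 379 kb, followed by dpr6 (165 kb) and dpr8 (140 kb), and the shortest were dpr19 (3.74 kb), dpr20 (4.53 kb) and DIP-iota (4.57 kb). In the longest of the 20 bins, 9 of 28 members had a summit, against 60.9% of the 670 other genes. In the next bin 0 of 10 members had one, against 50.6% of 688 other genes. The bin of dpr14 and dpr20 went the other way, with 2 of 3 members bound and 34.1% of the others.

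**Figure D2:**
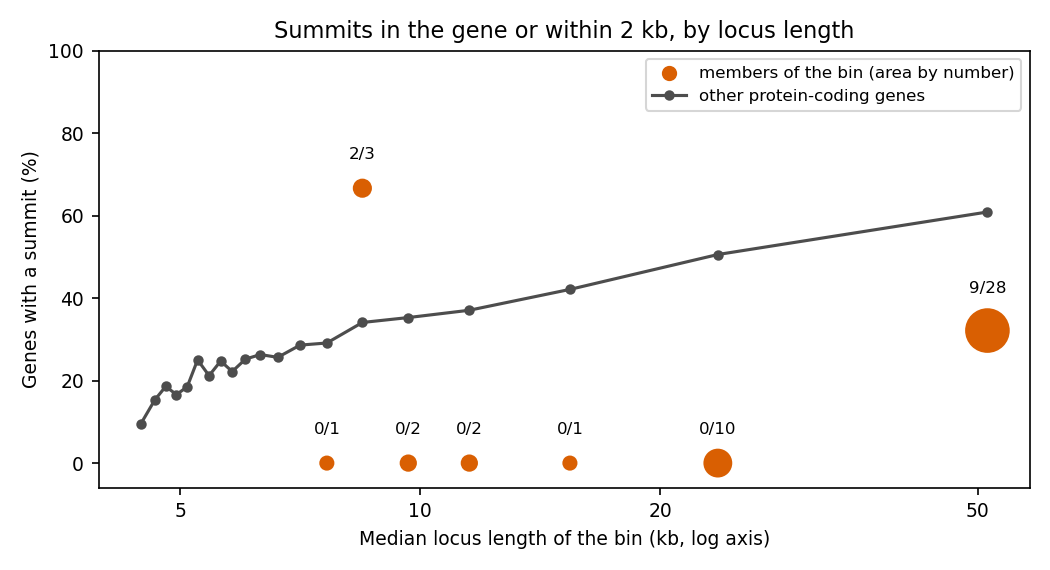
Percent of locus-bound genes by the median locus length of 20 equal bins (kb, log axis). Orange points are members, with bound members over all members of the bin printed above; the line is all other protein-coding genes, which reach 60.9% in the longest bin, where 9 of 28 members had a summit.

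Per length, the member loci held 21 summits in 2.36 Mb, or 8.92 per Mb, against 26.6 per Mb at genes of like length and 32.5 at all genes. For members and for all genes, overlapping loci were merged and each summit counted once. The value of genes of like length was summed gene by gene, so summits and bases shared by overlapping genes count more than once there. The full ranked list made from both replicates, which includes weak peaks below the authors' threshold, was nearly as dense at members as elsewhere, with 860 peaks per Mb at member loci and 923 at genes of like length. The 3 members farthest from a summit of the conservative list were set apart after the data were seen. DIP-lambda and dpr21 at the centromeric end of 2R, and dpr7 on the small chromosome 4, make up 22.2% of the locus length. Together they hold 65 ranked peaks, which were not counted for each gene. Without them the members had 1070 ranked peaks per Mb and 11.5 summits of the conservative list per Mb. These 3 genes held no summit of the conservative list, so leaving them out could only raise its density. The values of genes of like length were not recomputed without genes so far from a summit, so they are not a like comparison for these 2 values. How well reads can be placed in these 3 loci was not measured.

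Among the dpr genes, dpr14 had the strongest summit and the only one at a promoter. This summit (signal 306) had 196 in replicate 1 and 107 in replicate 2, and lay 445 bp upstream of the dpr14 TSS. It was at -200 bp from the TSS of spidey, a short-chain dehydrogenase gene (negative values lie upstream), so both promoters have the peak and the data do not assign it to either. A further summit within 2 kb of dpr14 (99.3; 49.2 in replicate 1 and 43.0 in replicate 2) lay inside spidey. The strongest summit of dpr20 (248) had 122 in replicate 1 and 120 in replicate 2, and lay 582 bp upstream of its TSS, just outside the promoter window. The other summit counted for dpr20 (139; 66.6 and 76.8 in replicates 1 and 2) lay 1503 bp past the end of the gene, at -129 bp from the TSS of Dci, a gene of fatty acid oxidation. Both dpr14 and dpr20 are short for this family, at 4.58 and 4.53 kb.

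The other dpr summits were weaker and deep in introns. In dpr3 a summit of signal 92.2 lay 25277 bp from the TSS, with 45.3 in replicate 1 and 48.2 in replicate 2. In dpr8 a summit of 85.5 lay 10249 bp from the TSS, with 54.3 in replicate 1 and 32.1 in replicate 2, and it passed neither replicate's own threshold. The remaining 17 dpr genes had no summit, among them dpr1, the founding member, named for a defective proboscis extension response to salt, with the nearest summit 31902 bp away.

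Among the DIP genes, DIP-alpha held 3 of the 4 summits. It encodes a receptor of Dpr6 and Dpr10 used by motor and visual system neurons. Its strongest summit (258) had 135 in replicate 1 and 113 in replicate 2, and lay in an intron at -211 bp from the TSS of the non-coding gene lncRNA:CR34335. The other 2 had signals of 96.6 (37.0 in replicate 1 and 55.3 in replicate 2) and 94.3 (53.4 and 36.1). DIP-epsilon had a summit of 81.6, with 43.9 in replicate 1 and 34.5 in replicate 2, in an intron 32002 bp from its TSS. Neither replicate's own thresholded list held it. The other 9 DIP genes had none.

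Among the beat genes, beat-Ib carried a group of 5 summits within 4335 bp, which is 23.8% of all member summits. With overlapping peaks counted once it had 4, of 19 over all members. The group lay in an intron 49232 to 53567 bp from the TSS, towards the 3′ end of the gene. Its strongest summit, at 345 the highest of any member, had 199 in replicate 1 and 155 in replicate 2. The next had a signal of 232, with 134 and 93.0, and the weakest (56.3) had 47.1 in replicate 1 and no matching peak in replicate 2. The peak of this weakest summit overlapped another of the group, and neither replicate's own thresholded list held it. The strongest summits were at -408 bp from the TSS of lncRNA:CR44867 and at -416 bp from that of lncRNA:CR44868, non-coding genes on the opposite strand within the intron. At the promoter of beat-Ib no peak of any rank was listed, in either replicate or in the list of both. Without beat-Ib the members had 6.98 summits per Mb.

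The other bound beat genes had 1 to 3 summits. In beat-VII a summit of 162 had 92.1 in replicate 1 and 66.9 in replicate 2, and was at -1656 bp from the TSS of Tb, a cuticle protein gene known for the Tubby body shape. The strongest of 3 summits in beat-IIIc (117) had 74.0 and 47.3, while the others, of 54.4 and 12.5, came from overlapping peaks and were in neither replicate's thresholded list. The beat-Vc summit (88.3) had 41.0 in replicate 1 and 38.2 in replicate 2. All of these lay more than 10 kb from the gene's own TSS. The 10 unbound beat genes included beat-Ia, the motor axon gene that names the family, 136762 bp from the nearest summit.

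At side, which encodes a muscle-borne attractant of motor axons, the only summit lay in an intron 30211 bp from the TSS. Its signal of 132 stood just above the median of the list, with 72.4 in replicate 1 and 62.4 in replicate 2.

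**Figure D3:**
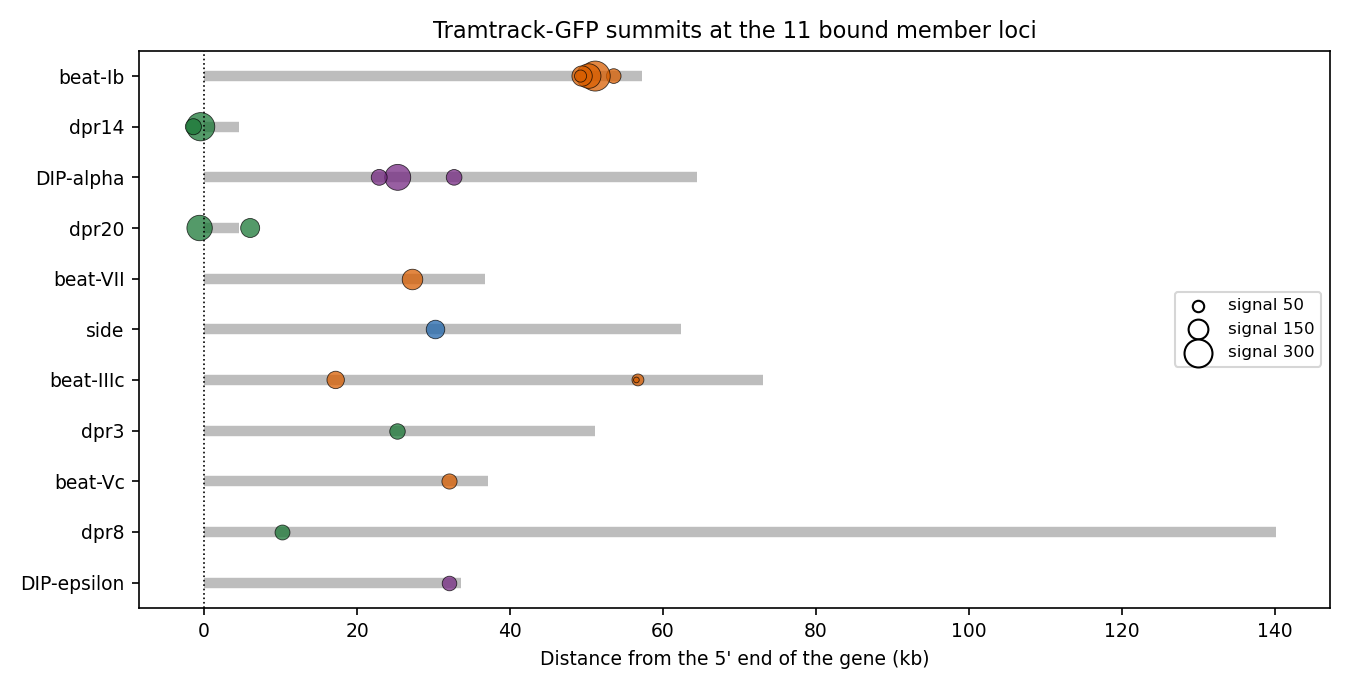
Position of the 21 summits along the 11 bound member loci, as distance from the 5′ end of the gene in kb (grey bars, genes; circle area, signal; colour, family). Of the 21, 16 lie over 10 kb from the member's own TSS, beat-Ib has a group of 5 near its 3′ end, and those of dpr14 and dpr20 lie just outside short genes.

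Most of the 21 summits lay far from the members' own promoters. By annotation 17 were in introns, 3 upstream and 1 downstream of the member, and none was in a coding exon. Their median distance to the member's own TSS was 27182 bp, and 16 were over 10 kb away; the other 5 were at dpr14, dpr20 and DIP-alpha. For 5 of them the nearest protein-coding TSS was the member's own. Of the 21, 2 lay within 500 bp of a protein-coding TSS (9.52%), against 41.1% of all summits. Near TSSs of non-coding genes the order was the other way, with 4 of 21 (19.05%), against 4.43% of all summits, and 3 of these 4 were in the beat-Ib intron. Counts this small, at neighbouring summits, carry no test.

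The median member summit was weaker than that of the list, while the strongest were not. Member signals ran from 12.5 to 345, with a median of 99.3, which placed the median member summit at the 34.3rd percentile of the list. In the strongest 20% of the list (signals of at least 227) were 5 of the 21 (23.8%), at beat-Ib (2 summits), dpr14, DIP-alpha and dpr20. Within 500 bp of a TSS of any gene were 4 of these 5, against 58.2% of the 763 summits in the strongest 20% of the list. In the replicates' own thresholded lists, 10 of the 21 stood in both (47.6%, against 54.2% of all 3815 summits) and 6 in neither (28.6%, against 19.6%). A peak in both ranked lists was found for 19, of which 15 were higher in replicate 1 (78.9%, against 62.6% of all such summits) and 4 in replicate 2. Their log2 ratio of replicate 1 to replicate 2 had a median of 0.25 ± 0.44 (SD over summits), against 0.15 ± 0.49 over 3579 summits of the whole list.

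**Figure D4:**
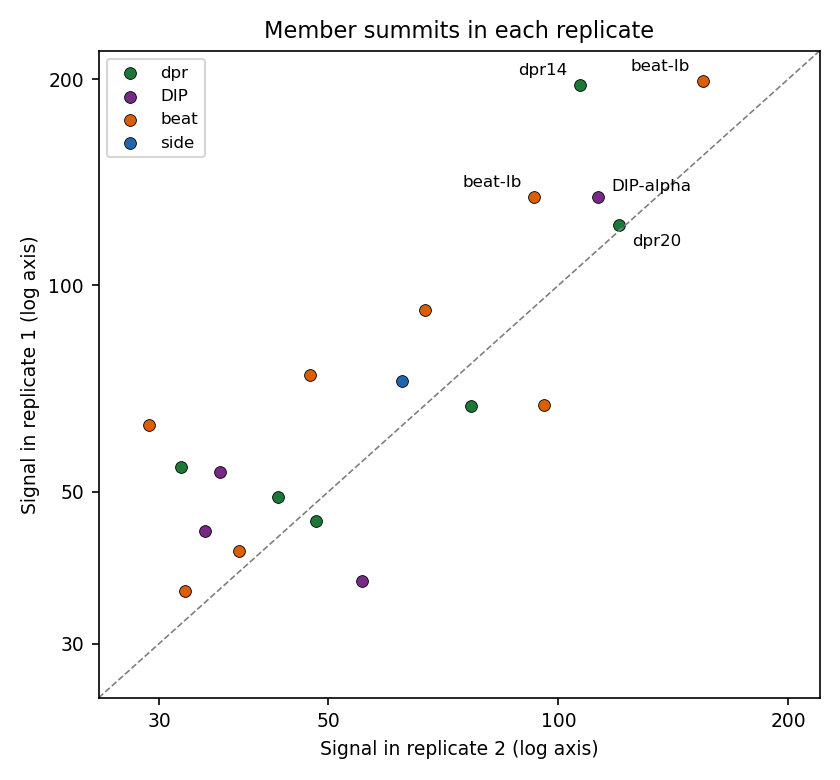
Signal of 19 member summits in replicate 1 against replicate 2 (authors' value in each replicate's own ranked list, log axes; dashed line, equal values; colour, family). The points of beat-Ib, dpr14, DIP-alpha and dpr20 at the upper right are the 5 summits among the strongest 20% of the list.

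Base content did not set the member summits apart: the median share of A and T in the 201 bases was 64.7% at member summits and 64.7% at all summits. Of 6 motifs searched on both strands within 100 bp of the summit, AGGAC, part of the sites described for tramtrack, was at 0 of 21 member summits and 9.36% of all. GGTCCT, which reads AGGACC on the other strand and so holds AGGAC, was at 0 and 1.42%. AGGGCGG was at 1 member summit, dpr14 (4.76%, against 0.813% of all), where it reads CCGCCCT in the sequence printed, 86 bp from the summit. AGGGTGG was at 0 (2.12% of all). GAGAG, the core of GAGA factor sites, was at 6 of 21 (28.6%, against 24.0% of all), including DIP-alpha and dpr20 (there as CTCTC), and ATCGAT, the core of sites of the promoter factor DREF, was at 0 (8.05% of all). Within 50 bp, GAGAG was at 1 of 21 and AGGGCGG at 0. Within 100 bp of protein-coding gene starts, AGGAC was at 13.4%, GGTCCT at 2.99% and ATCGAT at 18.9%, above their shares at all summits. There AGGGCGG (0.716%), AGGGTGG (1.07%) and GAGAG (22.5%) were below. A missing match says only that these letters are not in the window. With 21 member summits, motifs this rare at all summits would match few, so nothing is read from the counts of 0. Member summits also lay near protein-coding TSSs less often than all summits, and this was not matched.

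Weak peaks were listed at many member promoters. In the ranked list of both replicates 27 of 47 members had a peak within 500 bp of a TSS (57.4%), against 80.2% of genes of like length and 71.8% of all genes. Replicate 1 listed such a peak at 21 members (44.7%, against 67.4% of all genes) and replicate 2 at 35 (74.5%, against 68.8% of all genes). The members were thus below all genes in replicate 1 and above them in replicate 2. Shares of genes of like length were not computed for each replicate. Of all 47 members, 17 had such a peak in both replicates' own lists (36.2%, against 52.8% of all genes) and 8 in neither (17.0%, against 16.5%). By strength, with all genes ranked, the median member stood at the 36.7th percentile with both replicates, at the 16.3rd in replicate 1, which is the value of a gene with no peak, and at the 48.1st in replicate 2.

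After dpr14, the strongest of these promoter peaks was at dpr10, a partner of DIP-alpha, at 72.9 (34.3 in replicate 1 and 30.8 in replicate 2). Next came dpr8 at 50.3 (22.4 and 20.4), DIP-eta at 49.6 (31.8 and 17.1), DIP-gamma at 47.6 (18.8 and 17.4) and beat-VII at 45.7 (22.1 and 28.5). Apart from dpr14, no member stood above the 90th percentile of all genes in either replicate, at 60.1 in replicate 1 and 55.4 in replicate 2. The promoter of dpr19 had 51.6 in replicate 1, enough for that replicate's own thresholded list, and no peak in replicate 2.

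**Figure D5:**
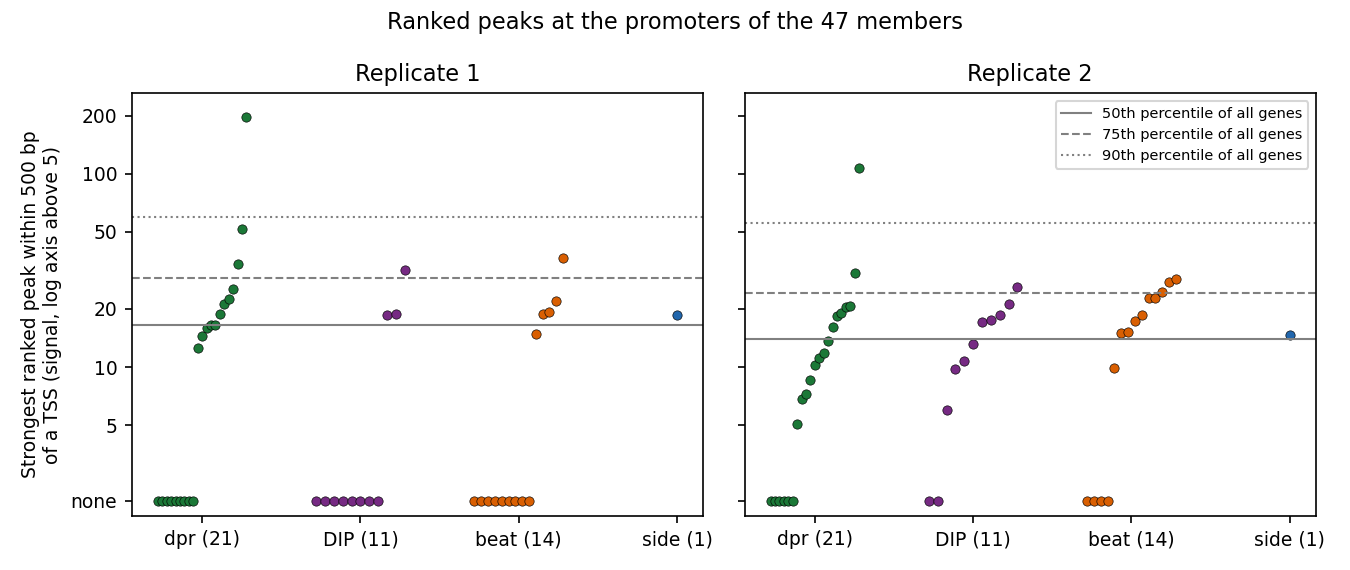
Strongest ranked peak within 500 bp of a TSS for each of the 47 members, by family, in replicate 1 (left) and replicate 2 (right; signal, log axis above 5, with no peak at the foot). Lines are the 50th, 75th and 90th percentiles of all protein-coding genes; dpr14 alone lies above the 90th, and 26 members in replicate 1 and 12 in replicate 2 had no peak.

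The 36 unbound members lay a median of 40792.5 bp from the nearest summit. The nearest were DIP-iota at 4414 bp, DIP-delta at 4924 bp and dpr17 at 9929 bp. Farthest were dpr7 at 773956 bp, dpr21 at 1466345 bp and DIP-lambda at 3951508 bp. From TSS to nearest summit, the median over all 47 members was 34717 bp, against 9973 bp over all protein-coding genes with a summit on their arm. This distance was not compared with that of genes of like length. Other lists changed which members counted. The authors' larger list had 14 locus-bound members (29.8%, against 59.3% of genes of like length and 31.9% of all genes). It added DIP-eta (signal 73.4), beat-Ic (67.1), dpr9 (60.8) and beat-IIb (60.1), dropped dpr8 and kept the other 10. At promoters it had 1 bound member, dpr14, against 23.1% of genes of like length and 16.1% of all genes. Replicate 1's own list had 8 locus-bound members (17.0%, against 48.5% of genes of like length and 24.8% of all genes). Replicate 2's had 9 (19.1%, against 47.8% of genes of like length and 25% of all genes), and 7 of the 11 had a summit in each. Promoter-bound in replicate 1's list were 2 members, dpr14 and dpr19, against 18.3% of genes of like length and 11.9% of all genes. In replicate 2's it was 1, dpr14, against 16.8% of genes of like length and 12.6% of all genes.

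Of 8 receptor and ligand pairs taken from general knowledge, 0 had a summit at both genes, 3 at 1 of them and 5 at neither. The pairs share DIP-alpha and DIP-gamma, and with 23.4% of members bound, few pairs with both would arise anyway, so nothing is read from this count. DIP-alpha had 3 summits, while its ligand genes dpr6 and dpr10 had 0, and side had 1, while beat-Ia had 0. DIP-gamma, which pairs photoreceptors with their targets, had 0, as did dpr11, dpr15, dpr16 and dpr17, and so did DIP-delta and dpr12, partners in the mushroom body.

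The 7 other side genes, which encode relatives of Side, had 0 promoter-bound members and 4 locus-bound (57.1%, against 54.6% of genes of like length). The strongest signals were 178 at side-V, 104 at side-IV, 85.8 at side-VIII and 84.6 at side-III. Of 58 other neuronal recognition and axon guidance genes, 9 were promoter-bound (15.5%, against 19.7% of genes of like length) and 28 locus-bound (48.3%, against 54.4%), with 26.4 summits per Mb. Their strongest summits were at Ptp4E, a receptor tyrosine phosphatase (545; 258 in replicate 1 and 290 in replicate 2), PlexA, a semaphorin receptor (457; 150 and 291), and kirre, an immunoglobulin-domain adhesion gene of myoblasts and neurons with 21 summits (390; 206 and 188). Next were ed, an adhesion gene of epithelia and neurons (301; 142 in replicate 1 and 151 in replicate 2), and Sema1a, a transmembrane semaphorin (253; 143 and 114.9). The PlexA summit, on chromosome 4, was the nearest of the conservative list to dpr7, at 773956 bp. The difference between the members and either list was not tested.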

How the data were processed

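ChIP-seq peak lists of 2 libraries, biological replicates of 1 group by their labels, were used in coordinates of dm6, as labelled; fragments were 200 to 800 bp, per the labels. Aligner and peak caller: not given in the sources used here. For every peak, the deposited lists hold a signal, with a normalization not given, and a score that rises with reproducibility between lists (IDR, the irreproducible discovery rate), at least 830 in the conservative list. Depth is unknown, and no interval is reported. Members and lists were chosen with earlier results of these data known.

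Genes and TSSs came from Ensembl release 115 and bases from NCBI RefSeq. Replicate signals were those of the nearest summit within 150 bp in each replicate's own ranked list. Named genes are the bound members, the 3 unbound ones nearest to and the 3 farthest from a summit, the 3 longest and 3 shortest, the 5 strongest of each related list, and dpr1, dpr6, dpr10, dpr11, dpr12, DIP-alpha, DIP-gamma, DIP-delta, beat-Ia and side. Others named were chosen after their values were seen. The counting was tested on simulated data. Alternatives were other lists, windows, flanks and length matching. Python 3.11.15, numpy 2.4.6, pandas 2.3.3 and matplotlib 3.10.9 were used.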

Additional observations from a re-analysis of the deposited data

How the results depend on the processing

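Under every alternative run, the members' bound shares were below those of genes of like length, or of like TSS number where that was matched instead. The promoter difference was -21.5 to -10.04 percentage points over 15 alternatives: -21.0 with the larger list, -10.04 with the 1908 strongest peaks, -18.7 with 83 ranked peaks past the score threshold restored, -14.7 to -14.1 with 1 replicate left out, -20.2 with whole peaks, -13.6 and -21.5 with windows of 250 and 1000 bp, -10.2 with 5′ ends only, -11.2 matched on TSS number and -16.7 with the 50 genes nearest in length. Promoter-bound members numbered 0 and 2 with windows of 250 and 1000 bp, and 1 to 2 with 1 replicate left out. The locus difference was -32.3 to -22.9 points over 14 alternatives, the smaller ones being -23.7 with the strongest peaks (6 members bound), -22.9 with no flank and -23.2 without summits at another gene's promoter, an alternative chosen after seeing the data. Summits per Mb of member locus were 11.5 with the larger list, 3.82 with the strongest peaks, 5.52 to 6.37 with 1 replicate left out, 8.07 with overlapping peaks counted once, 7.84 with no flank and, in alternatives chosen after seeing the data, 11.5 without dpr7, dpr21 and DIP-lambda and 6.98 without beat-Ib. The causes were not tested. Only peaks were used, so a gene without a summit may be bound below the authors' threshold, and expression and open chromatin were not matched. With replicate 2 left out, beat-Vc, dpr3, dpr8 and DIP-epsilon lost their summits, and with replicate 1 left out dpr8 and DIP-epsilon did.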
